A study of Mus musculus with 2 samples.

Results

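Chemokine receptors of colonic leukocytes were examined in single-cell RNA profiles. The 9 genes were Ccr1, Ccr2, Ccr7, Ccr9, Cx3cr1, Cxcr2, Cxcr3, Cxcr4 and Cxcr6, taken by symbol from the 32285 genes of the count matrices, and all 9 were found in both libraries. Each receptor was described in 8 classes of leukocytes defined by marker genes and in each of the 2 libraries.

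Chemokine receptors are G protein-coupled receptors that read gradients of small secreted proteins, the chemokines, and set where a leukocyte goes and stays. Ccr2 brings Ly6C-positive monocytes into the gut wall, Cx3cr1 marks the macrophages they become there, Ccr1 and Cxcr2 guide inflammatory myeloid cells and neutrophils, and Ccr7 leads dendritic cells and naive lymphocytes to lymph nodes. Ccr9 directs lymphocytes and plasma cells to the gut, Cxcr3 and Cxcr6 are carried by effector and tissue-resident T cells, and Cxcr4 retains many leukocytes in marrow and tissue through its ligand Cxcl12.

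The samples were immune cells of the colon lamina propria, the connective tissue beneath the gut epithelium, separated on a Percoll gradient and stained for sorting, with dead cells removed. The study compared Runx3 fl/fl mice that carry Lyz2-Cre, a Cre recombinase expressed from the lysozyme gene in macrophages, monocytes and neutrophils, with floxed littermates, and it describes pooled male mice of 8 weeks with n = 6. Whether 6 mice went into each library or into both together is not given in the sources used here. There was 1 library for each group, titled Runx3_fl and Runx3. Both titles lack a statement on Cre, so no genotype was assigned and the libraries are named by their titles. With 1 library per group no test was possible and no p-value is given. The 95% intervals reflect counting error alone. The label, the pool of animals and the library preparation cannot be told apart.

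After filtering, 11885 of 12968 cells remained in the Runx3_fl-labelled library and 8167 of 8953 in the Runx3-labelled library, with medians of 9573 and 5731 UMIs per cell. A UMI is a molecular barcode that counts 1 captured RNA molecule once. The libraries shared 37 cell barcodes. Runx3 itself was at 165 CPM (156–173) in macrophages of the Runx3_fl-labelled library and at 234 CPM (225–244) in those of the Runx3-labelled library, where CPM is the number of UMIs of the gene per 1000000 UMIs of the class. Xist, the RNA of the inactive X chromosome, stood at 212 CPM (28866 UMIs) and 0.183 CPM (12 UMIs), which for the Runx3_fl-labelled library goes against the stated male sex. Every difference between the libraries below therefore also lies between a library with Xist and a library with almost none, and the part of this in the results was not tested.

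The classes were NK cells, CD4 T cells, CD8 T cells, B cells, neutrophils, conventional dendritic cells (cDC), monocytes and macrophages. Each gate required UMIs of its marker genes, most gates also excluded genes of other classes, and a cell that passed more than 1 gate was left out. In the order above, the gates held 1255, 1276, 1249, 358, 701, 993, 989 and 607 cells of the Runx3_fl-labelled library. In the Runx3-labelled library they held 87, 147, 110, 1190, 741, 550, 1238 and 834 cells. The gated cells were 62.5% and 60.0% of kept cells. The labels name the cells CD11b-positive, but lymphoid gates held many cells, and Itgam, the gene of CD11b, was at 44.4 and 18.9 CPM in B cells against 142 and 217 CPM in macrophages. Marker genes that had no part in the gates were summed by list, and the sum for each class was highest in the matching class, with 1 exception. In the Runx3-labelled library the pair Gzmk and Nkg7, listed for CD8 T cells, summed to 938 CPM in NK cells and 304 CPM in CD8 T cells. A sum does not show that every gene of its list was highest there. S100a8, an abundant neutrophil RNA, was higher in the Runx3-labelled library in every class, from 1.86 against 90.2 CPM in NK cells and 5.19 against 145 CPM in B cells to 143 against 4166 CPM in monocytes.

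In the GENCODE M21 annotation of GRCm38, Ccr9, Cxcr6, Ccr1 and Ccr2 lay in that order on chromosome 9. Ccr9 spanned chr9:123678439-123784330 on the plus strand, Cxcr6 chr9:123806475-123811760 on the plus strand, Ccr1 chr9:123962124-123968692 on the minus strand and Ccr2 chr9:124101950-124113557 on the plus strand. Cx3cr1 lay elsewhere on the same chromosome at chr9:119901616-120069879 on the minus strand. The others were Ccr7 at chr11:99144196-99155077, minus strand, Cxcr2 at chr1:74153989-74161246, plus strand, Cxcr4 at chr1:128588199-128592293, minus strand, and Cxcr3 at chrX:101731535-101734269, minus strand. All 9 are annotated as protein coding. Of the 50-base stretches in their exons, 4.01% for Cxcr2, 2.13% for Ccr9, 1.91% for Ccr2 and 0.269% for Cx3cr1 also occurred in exons of other genes, so a small part of these reads may be shared.

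Because Runx3 encodes a transcription factor of the RUNX family, the letters TGTGGT and TGCGGT, 2 forms of the RUNX recognition sequence, were searched on both strands in the 250 bases before the start of each gene in RefSeq (GRCm38.p6). Windows were found for 8 of the 9 receptors, and 4 of the 8 held a match, against 18.6% of all 32851 windows of that length. The matches are shown 5′ to 3′ on the strand of the gene, each in a stretch of 30 bases with the match in capitals. ACCACA is TGTGGT read on the other strand.
Cx3cr1, chr9:120068406-120068435, minus strand: tgcaggctctctTGCGGTcagctggttccc
Cx3cr1, chr9:120068333-120068362, minus strand: taaagatagggtACCACAcaggaaaccaga
Cxcr6, chr9:123806447-123806476, plus strand: agtatttgacggaaacacagACCACAtcac
Ccr1, chr9:123968733-123968762, minus strand: ggctcctcactgACCACAagaactctatga
Cxcr3, chrX:101734240-101734269, minus strand: tgtattcacctgACCACAggcgtggcagaa
They lay 127 and 54 bases before the RefSeq start in Cx3cr1, 10 bases in Cxcr6, 58 bases in Ccr1 and 110 bases in Cxcr3. All of the 30-base stretches but that of Ccr1 overlapped an exon that GENCODE annotates for the gene. In Cxcr6 only bases after the match did so, since the annotated gene starts at 123806475. The letters in capitals are matches and not measured binding sites. The PU.1 letters GAGGAA were in the windows of Cxcr2, Ccr1 and Cxcr3, against 23.3% of all windows.

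Of the 9 receptors, 6 had their highest level in the same class in both libraries. Ccr1 and Cxcr2 were highest in neutrophils, Ccr2 in monocytes, Ccr7 in cDC, and Cxcr3 and Cxcr6 in CD4 T cells. Ccr9 was highest in B cells in the Runx3_fl-labelled library and in CD8 T cells in the Runx3-labelled library. Cx3cr1 and Cxcr4 were highest in neutrophils in the Runx3_fl-labelled library, and in macrophages and monocytes, respectively, in the Runx3-labelled library.

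**Figure D1:**
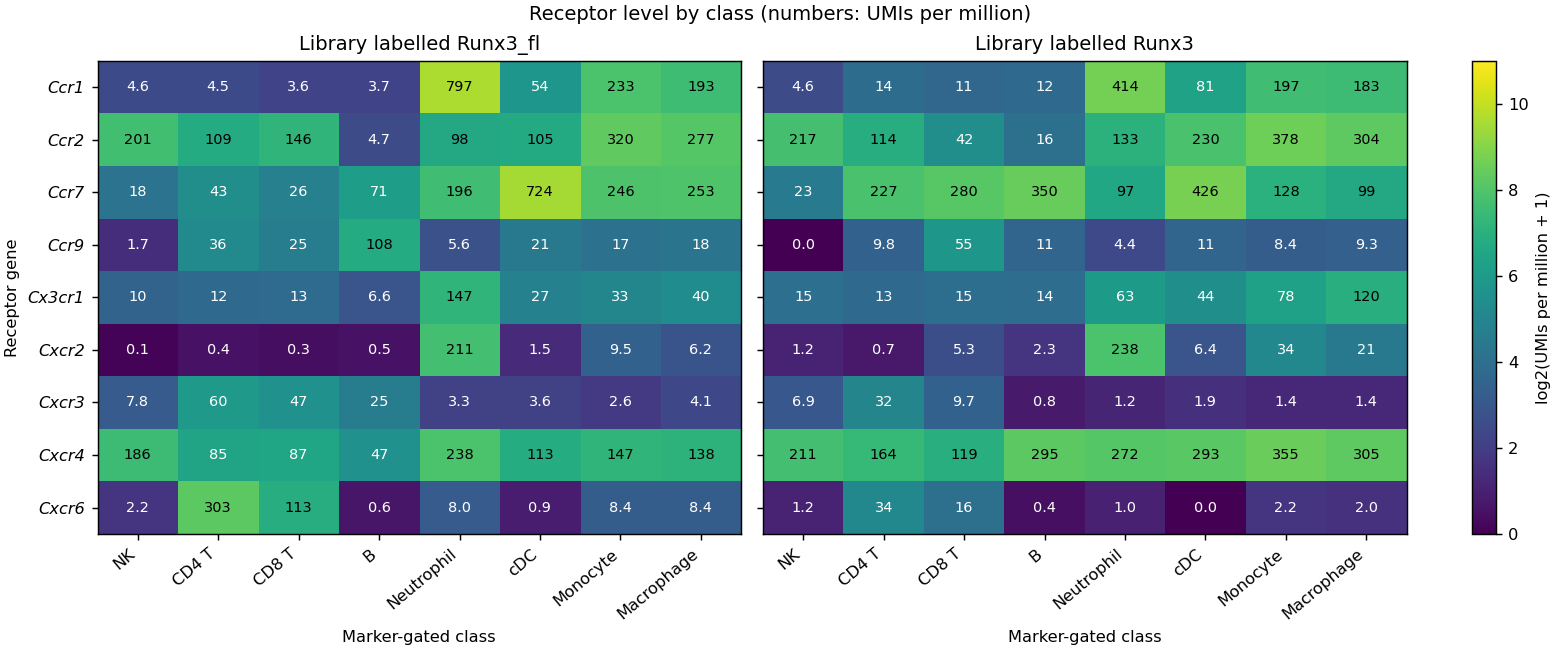
Level of each receptor (rows) in each gated class (columns) in the Runx3_fl-labelled library (left) and the Runx3-labelled library (right). Numbers are CPM and colour is log2(CPM + 1): Cxcr6 in CD4 T cells stands at 303 and 33.7, and Ccr7 in B cells at 71.3 and 350.

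Levels were compared between the libraries as the log2 ratio of CPM plus 1 in the Runx3-labelled library over the Runx3_fl-labelled one, for the 53 of 72 pairs of receptor and class with at least 10 CPM in a library and 10 UMIs over both. By at least 2-fold, 18 pairs (34.0%) were higher in the Runx3-labelled library, against a background of 12% of all genes examined by the same rule over the 8 classes. Among the 18 were pairs of low level, namely Ccr1 in CD4 T, CD8 T and B cells and Ccr2 and Cx3cr1 in B cells. All of these were at 15.9 CPM or less. In the other direction, 10 pairs (18.9%) were higher in the Runx3_fl-labelled library, against 6.86% of all genes. The remaining 25 pairs differed by less than 2-fold. When the median gene of each class was set to a ratio of 0, which moved the ratios by between 0.02 in CD8 T cells and 0.29 in neutrophils, the counts were 16 and 14, against 9.49% and 8.45% of all genes.

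The differences were unevenly spread over the classes. In NK cells none of 4 pairs passed the 2-fold limit in either direction, against backgrounds of 5.33% higher in the Runx3-labelled library and 1.98% higher in the Runx3_fl-labelled library. CD4 T cells had 2 of 8 pairs higher in the Runx3-labelled library (background 13.1%) and 2 higher in the Runx3_fl-labelled library (background 9.63%). CD8 T cells had 3 of 8 in each direction (backgrounds 13.9% and 12.9%). All 7 pairs in B cells passed, 5 higher in the Runx3-labelled library (background 19%) and 2 higher in the Runx3_fl-labelled library (background 16%). The 5 included Ccr1, Ccr2 and Cx3cr1, for which B cells were taken as a class that should lack the gene. Neutrophils had 0 of 6 higher in the Runx3-labelled library (background 16.2%) and 2 higher in the Runx3_fl-labelled library (background 6.51%). In cDC these counts were 2 and 0 of 6 (backgrounds 8.76% and 1.88%), in monocytes 3 and 0 of 7 (9.47% and 2.48%) and in macrophages 3 and 1 of 7 (9.94% and 2.98%).

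**Figure D2:**
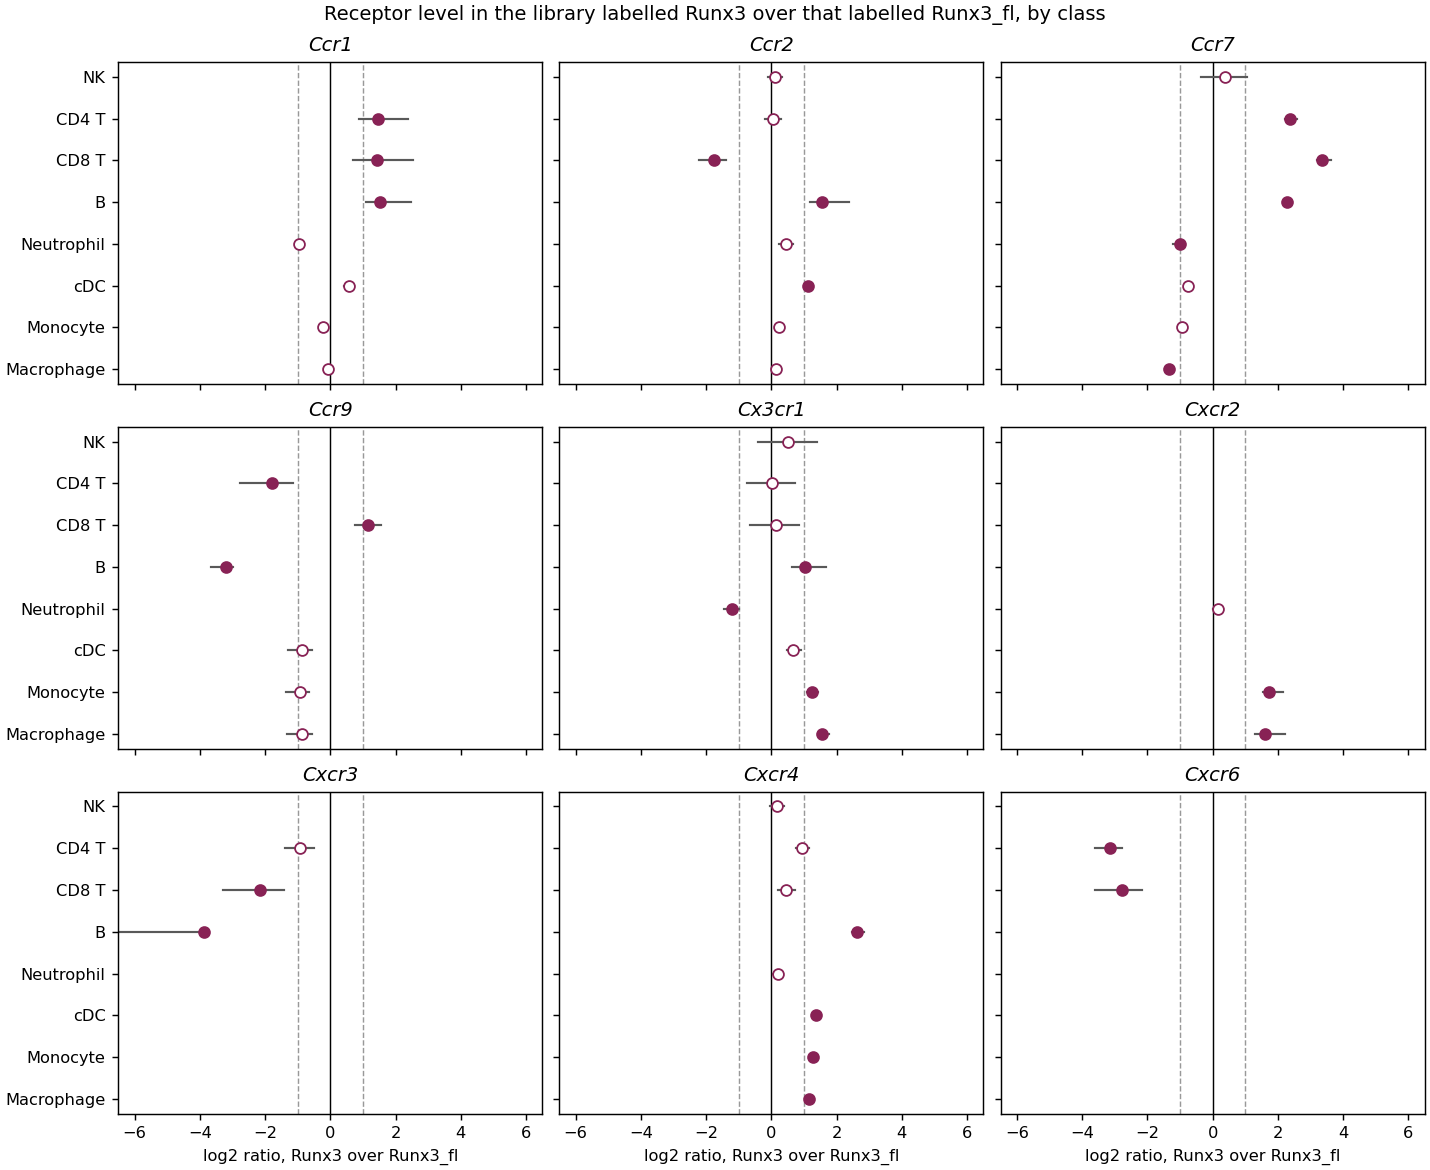
Log2 ratio of each receptor's level in the Runx3-labelled library over the Runx3_fl-labelled one (horizontal axis) by class (vertical axis), for the 53 pairs with enough UMIs. Points are ratios, filled where they reach 2-fold (dashed lines at -1 and 1), and lines are 95% counting intervals: the Cxcr6 points in T cells lie left of -2 and the Ccr7 points in T and B cells right of 2.

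Ccr1, a receptor for Ccl3, Ccl5, Ccl6 and Ccl9 on myeloid cells, was highest in neutrophils, at 797 CPM (766–830) in the Runx3_fl-labelled library and 414 CPM (394–434) in the Runx3-labelled library. The neutrophil level of the Runx3-labelled library was thus the lower one, with a log2 ratio of -0.95 (-1.04 to -0.86) just short of the 2-fold limit. To compare shares of cells at 1 depth, each cell was thinned to 2000 UMIs. A Ccr1 UMI was then present in 64.3% (60.3–68.1) and 43.1% (38.8–47.4) of neutrophils, and before thinning in 73.8% and 50.5%. In B cells, which should lack Ccr1, the thinned shares were 1.41% and 2.61%, at median depths of 16887 and 5520 UMIs against 3158 and 3437 in neutrophils. Monocytes followed neutrophils at 233 CPM (225–241) and 197 CPM (189–206), and macrophages were at 193 CPM (184–203) and 183 CPM (175–192), where the counting intervals of the libraries overlapped. In cDC Ccr1 was at 53.9 and 80.6 CPM. The lymphoid levels were low in both libraries, between 3.58 CPM and 14.0 CPM. CD4 T, CD8 T and B cells nevertheless passed the 2-fold limit toward the Runx3-labelled library, with log2 ratios of 1.46, 1.44 and 1.52. S100a8 was also higher in these gates in that library, and its part in those differences was not tested. The thinned Ccr1 shares of CD4 and CD8 T cells were not above that of B cells.

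Cxcr2, the neutrophil receptor for Cxcl1 and Cxcl2, had the most restricted distribution of the myeloid receptors. Neutrophils were at 211 CPM (195–228) in the Runx3_fl-labelled library and 238 CPM (223–253) in the Runx3-labelled library, a log2 ratio of 0.17. The share of neutrophils with a Cxcr2 UMI at 2000 UMIs went the other way, at 34.4% (30.7–38.3) and 28.2% (24.4–32.2), and UMIs per positive cell before thinning were 2.17 and 4.19. The share of neutrophils with a Cxcr2 UMI was thus the smaller one in the Runx3-labelled library, with overlapping intervals, and positive cells there had more UMIs each. UMIs per positive cell were not brought to 1 depth, so level and cell depth are mixed in them. Monocytes had 9.55 and 34.2 CPM of Cxcr2, with a log2 ratio of 1.74 (1.55–2.14), and macrophages had 6.22 and 21.0 CPM, with a ratio of 1.60 (1.31–2.21). S100a8 was at 143 and 4166 CPM in the same monocytes and at 99.9 and 1845 CPM in the macrophages, and its part in the Cxcr2 difference was not tested. In NK, T and B cells Cxcr2 was at 5.27 CPM or less.

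The neutrophil gate held cells of different maturity. Cells with at least 5 UMIs of the granule genes Ltf, Camp and Ngp, which immature neutrophils express, numbered 1 in the Runx3_fl-labelled library and 93 in the Runx3-labelled library. Within the Runx3-labelled library, Cxcr2 was at 360 CPM (330–392) in the granule-high cells and at 169 CPM (154–186) in the others. The others were mixed, so these values do not compare immature with mature neutrophils. In the same library Cxcr2 was at 36.1 CPM in gated cells with fewer than 10 UMIs of S100a8 and S100a9. It was at 417 CPM in all those with at least 10. The granule-high cells had a median of 13524 UMIs, against 3101 in the others, and held 522 of the 963 Cxcr2 UMIs of the gate. The other receptors were lower in the granule-high cells: Ccr1 stood at 211 against 526 CPM, Cxcr4 at 142 against 344 CPM and Cx3cr1 at 4.83 against 95.2 CPM. With the granule-high cells left aside, the neutrophil levels of Ccr1 were 797 and 526 CPM and those of Cxcr2 were 212 and 169 CPM. Both were thus lower in the Runx3-labelled library among these remaining cells, which still included cells with few UMIs of S100a8 and S100a9. Cells with fewer than 10 UMIs of these 2 genes were 48.2% and 62.6% of the whole gate, with Ccr1 at 404 and 233 CPM. Cells with more S100a8 and S100a9 were not compared between the libraries with the granule-high cells left aside. In all neutrophils with at least 10 UMIs of S100a8 and S100a9 together, Cxcr2 was in the opposite order, at 360 and 417 CPM.

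A split of the same gate by S100a8 and S100a9 (at least 10 UMIs together), chosen after the data were seen, separated 2 receptor profiles. The S100a8/9-positive cells, 363 and 277 in number with granule-high cells not left aside, had Ccr1 at 1290 and 575 CPM. Cxcr2 was at 360 and 417 CPM in them, and Ccr2 at only 26.2 and 22.4 CPM. The S100a8/9-low cells, 338 and 464, had Ccr2 at 156 and 258 CPM and Ccr7 at 281 and 183 CPM, with Cxcr2 at 93.0 and 36.1 CPM. The Ccr2 and Ccr7 UMIs of the neutrophil gate therefore came mainly from cells with few of the neutrophil RNAs S100a8 and S100a9. Among the S100a8/9-positive cells Ccr7 was at 88.3 and 19.6 CPM.

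Cx3cr1, the receptor for the tethered chemokine fractalkine, was at 147 CPM (134–161) in neutrophils of the Runx3_fl-labelled library and 62.9 CPM (55.4–71.1) in those of the Runx3-labelled library. In macrophages the order was the opposite, with 39.9 CPM (35.8–44.3) and 120 CPM (113–127). Log2 ratios were -1.21 (-1.45 to -0.999) in neutrophils, 1.23 (1.09–1.43) in monocytes and 1.56 (1.41–1.76) in macrophages. With the granule-high cells left aside, the neutrophil ratio was -0.62 (-0.86 to -0.40), under the 2-fold limit. At 2000 UMIs, 22.5% and 13.8% of neutrophils had a Cx3cr1 UMI, against 7.49% (5.51–9.89) and 20.4% (17.6–23.4) of macrophages and 1.98% and 2.14% of B cells, the background for this gene. Monocytes were at 32.5 and 77.7 CPM and cDC at 27.1 and 43.8 CPM. In NK and T cells, where the levels of 10.2 to 15.0 CPM had overlapping intervals between the libraries, no difference was detectable at this depth. In B cells the levels were 6.56 and 14.4 CPM, a log2 ratio of 1.02. Annotated Cx3cr1 transcripts span other genes of the same strand, of which Csrnp1 was the most abundant here. Csrnp1 itself was at 448 and 460 CPM in macrophages and at 423 and 484 CPM in monocytes. In the other classes where Cx3cr1 passed the limit, Csrnp1 differed in the same direction, at 57.1 and 166 CPM in B cells and 772 and 511 CPM in neutrophils. The part of Csrnp1 reads in the Cx3cr1 differences was not tested in any class.

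Ccr2, the receptor for Ccl2 that draws monocytes from blood, was highest in monocytes, at 320 CPM (310–330) in the Runx3_fl-labelled library and 378 CPM (367–389) in the Runx3-labelled library. Macrophages followed at 277 CPM (266–289) and 304 CPM (294–315), and the thinned shares of cells with a UMI were nearly equal between the libraries, at 42.3% and 43.7% of monocytes and 40.4% and 40.3% of macrophages. NK cells had 201 CPM (193–210) and 217 CPM (187–251), with overlapping intervals. Ccr2 passed the 2-fold limit in cDC, CD8 T cells and B cells. In cDC it was at 105 CPM (100–110) and 230 CPM (219–241), a log2 ratio of 1.12 (1.03–1.23), with a UMI in 15.1% (12.96–17.6) and 32.3% (28.3–36.5) of thinned cells. The make-up of the cDC gate differed between the libraries, with Xcr1 or Clec9a in 451 of 993 and 109 of 550 cells, and within those cells and within the cDC that lacked Xcr1, Clec9a and Fscn1 the ratios were 0.92 and 0.94, under the limit. CD8 T cells stood in the other order, with 146 CPM (141–152) and 42.2 CPM (31.1–55.9), a log2 ratio of -1.77 (-2.24 to -1.38), with thinned shares of 22.9% (20.6–25.3) and 4.63% (1.52–10.5). That ratio was -0.75 when cells that passed more than 1 gate were counted in each class. CD4 T cells as a whole were at 109 and 114 CPM, with overlapping intervals. Cells with Foxp3, of regulatory T cells, were 1.80% and 19.7% of that gate, and the Ccr2 ratio was -0.75 (-1.19 to -0.33) within them and -0.53 (-0.88 to -0.21) in the other CD4 T cells. Divided instead by Lef1, a gene of naive and memory T cells, the gate had ratios in opposite directions. They were -0.75 (-1.18 to -0.37) with Lef1 and 0.86 (0.56–1.16) without it. B cells, which served as the background class, had 4.73 and 15.9 CPM, a log2 ratio of 1.56 (1.17 to 2.36), and thinned shares of 1.41% and 2.14%. In neutrophils Ccr2 was at 98.2 and 133 CPM.

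Monocytes that enter the gut wall lose Ly6C and gain macrophage genes, and Ccr2 and Cx3cr1 are known to move in opposite directions along that path. It was followed over 3 gates: monocytes (Ly6c2-positive, without C1qa), macrophages with a Ly6c2 UMI (455 and 737 cells) and macrophages without one (152 and 97 cells). Ccr2 was at 320, 290 and 224 CPM in these gates in the Runx3_fl-labelled library and at 378, 313 and 208 CPM in the Runx3-labelled library. Cx3cr1 was at 32.5, 32.4 and 70.6 CPM in the first library and at 77.7, 106 and 285 CPM in the second. Ccr2 was thus lowest and Cx3cr1 highest in the Ly6c2-negative macrophages of both libraries. On the log2 scale, Ly6c2-negative macrophages differed from monocytes by -0.51 (-0.67 to -0.36) and -0.86 (-1.09 to -0.64) for Ccr2, and by 1.09 (0.81–1.41) and 1.86 (1.66–2.09) for Cx3cr1. Between the libraries, Cx3cr1 in the Ly6c2-negative macrophages had a log2 ratio of 2.00 (1.69–2.35), and Ccr2 there had one of -0.11 (-0.38 to 0.16). Ccr1 was between 181 and 233 CPM in the 3 gates of both libraries, with no common order.

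**Figure D3:**
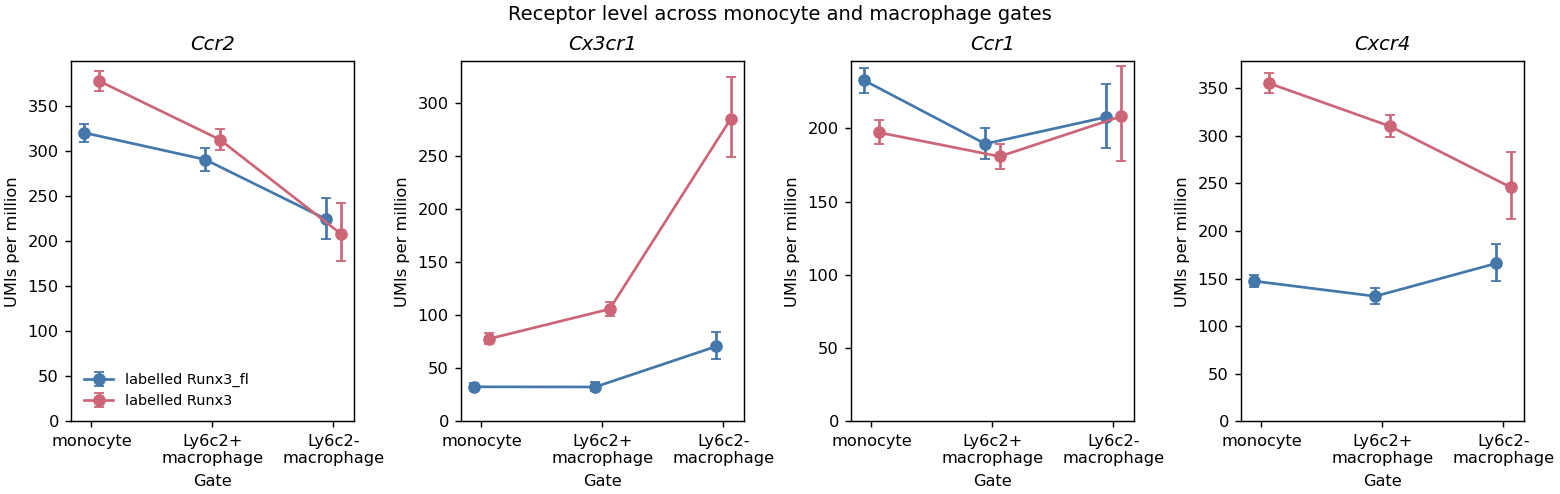
Level of Ccr2, Cx3cr1, Ccr1 and Cxcr4 (CPM, vertical axis) in the monocyte gate, Ly6c2-positive macrophages and Ly6c2-negative macrophages, in the Runx3_fl-labelled library (blue) and the Runx3-labelled one (red). Bars are 95% Poisson intervals: Cx3cr1 reaches 70.6 and 285 in Ly6c2-negative macrophages, where Ccr2 is at 224 and 208.

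Ccr7, the receptor for Ccl19 and Ccl21, was highest in cDC, at 724 CPM (711–737) in the Runx3_fl-labelled library and 426 CPM (411–441) in the Runx3-labelled library. The share of cDC with a UMI at 2000 UMIs was 42.6% (39.5–45.7) and 27.0% (23.2–31.1). In monocytes Ccr7 was at 246 and 128 CPM and in macrophages at 253 CPM (242–263) and 98.7 CPM (92.6–105). All 4 myeloid classes, neutrophils included at 196 and 96.7 CPM, were lower in the Runx3-labelled library, with log2 ratios of -0.76 in cDC, -0.94 in monocytes, -1.01 in neutrophils and -1.35 (-1.47 to -1.25) in macrophages. The neutrophil ratio was 0.55 when each cell was given equal weight, and the macrophage ratio was -0.66 when cells of more than 1 gate were counted. With the granule-high cells left aside, the neutrophil ratio was -0.43 (-0.63 to -0.25).

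The lymphoid classes stood in the opposite order. CD4 T cells were at 42.5 CPM (39.6–45.6) and 227 CPM (203–253), CD8 T cells at 26.4 CPM (24.1–28.8) and 280 CPM (250–313), and B cells at 71.3 CPM (64.9–78.0) and 350 CPM (338–364). The log2 ratios were 2.39 (2.22–2.60), 3.36 (3.20–3.62) and 2.28 (2.16–2.44). At 2000 UMIs the share of cells with a Ccr7 UMI was 3.38% and 27.4% of CD4 T cells, 4.01% and 22.2% of CD8 T cells and 23.7% and 47.8% of B cells, against 6.39% and 8.32% of neutrophils as background. B cell markers also differed in the T gates: the 6 genes listed for B cells summed to 7.63 and 87.7 CPM in CD4 T cells and 10.3 and 224 CPM in CD8 T cells, and their part in the Ccr7 difference was not tested. In T cells of the Runx3_fl-labelled library the shares of cells with Ccr7 were at or below background, although the neutrophil gate also held Ccr7-bearing cells with little S100a8 and S100a9. NK cells had 17.5 CPM (15.1–20.2) and 23.1 CPM (14.1–35.7), with overlapping intervals.

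Ccr7 in cDC was concentrated in cells with at least 2 UMIs of Fscn1, a gene of migratory dendritic cells. These were 125 of 993 cDC and 37 of 550, and they held 44.7% and 35.3% of the Ccr7 UMIs of the class. Their level was 3425 CPM in the Runx3_fl-labelled library and 2933 CPM in the Runx3-labelled library, and 95.9% and 89.2% of them had a UMI after thinning. In cDC with Xcr1 or Clec9a, markers of the cross-presenting type, Ccr7 was at 260 CPM (250–271) and 201 CPM (181–223). The remaining cDC had 767 CPM (744–791) and 323 CPM (307–339), a log2 ratio of -1.24 (-1.33 to -1.16), which was the widest contrast of the 3 subsets. Ccr2 was nearly absent where Ccr7 was highest, at 14.3 and 5.59 CPM in Fscn1-positive cDC against 134 and 258 CPM in the remaining cDC. Ccr1 followed Ccr2, at 10.4 and 5.59 CPM against 106 and 96.8 CPM.

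**Figure D4:**
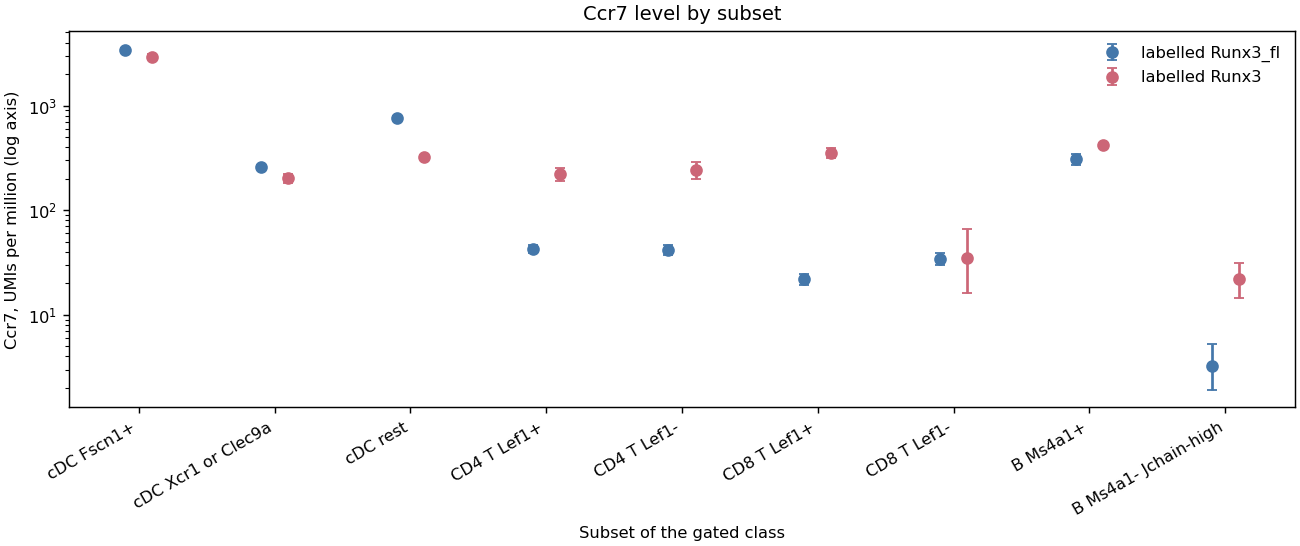
Ccr7 level (CPM, log axis) in subsets of cDC, T cells and B cells in the Runx3_fl-labelled library (blue) and the Runx3-labelled one (red), with 95% Poisson intervals. Fscn1-positive cDC lie at 3425 and 2933, and Lef1-positive CD8 T cells at 22.0 and 352.

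The T cell gates were divided by Lef1, a transcription factor of naive and memory T cells, by a rule chosen after the data were seen. In CD8 T cells of the Runx3-labelled library, Ccr7 was at 352 CPM (314–393) in the 71 cells with Lef1 and at 35.0 CPM (16.02–66.5) in the 39 cells without. In the Runx3_fl-labelled library both subsets were low, at 22.0 CPM (19.4–24.8) in 733 cells and 34.2 CPM (29.96–38.9) in 516 cells. CD4 T cells showed no such division, with 220 and 241 CPM in the Runx3-labelled library and 43.0 and 41.7 CPM in the Runx3_fl-labelled library. The higher Ccr7 level of CD8 T cells in the Runx3-labelled library was therefore found with Lef1 and not without it, where the log2 ratio was 0.03 (-1.11 to 0.98).

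Ccr9, the gut-homing receptor for Ccl25, was highest in B-gated cells of the Runx3_fl-labelled library, at 108 CPM (100–116), against 10.9 CPM (8.72–13.4) in those of the Runx3-labelled library. The log2 ratio was -3.20 (-3.65 to -2.99), and a UMI was present in 11.9% (8.69–15.7) and 0.838% (0.384–1.58) of thinned cells, against 0.82% and 0.378% of neutrophils as background. CD4 T cells also had more in the Runx3_fl-labelled library, at 36.3 CPM (33.6–39.2) and 9.82 CPM (5.37–16.5), a log2 ratio of -1.79 (-2.77 to -1.13). CD8 T cells had less there, at 24.5 CPM (22.3–26.8) and 55.4 CPM (42.5–70.8), a log2 ratio of 1.14 (0.77–1.56). The last comparison rests on 63 UMIs from 110 cells of the Runx3-labelled library, and Jchain, a plasma cell RNA, was at 293 and 2338 CPM in the same CD8 T gates. The part of Jchain-bearing material in the CD8 T difference was not tested. Monocytes, macrophages and cDC were between 16.7 and 20.8 CPM in the Runx3_fl-labelled library and between 8.36 and 10.9 CPM in the Runx3-labelled library. Ccr9 is annotated across the gene Lztfl1, which lies on the opposite strand and stood in the same order between the libraries in these classes. Lztfl1 was at 146 and 91.8 CPM in B cells, where Ccr9 differed far more, at 33.8 and 58.0 CPM in CD8 T cells, 92.2 and 56.3 CPM in monocytes and 106 and 48.5 CPM in macrophages. The part of Lztfl1 reads in the Ccr9 values was not tested.

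The B gate, set on Cd79a and few Cd3 UMIs, holds B cells and plasma cells, and their shares differed between the libraries. Cells with Ms4a1 (CD20) were 112 of 358 and 720 of 1190, and cells with no Ms4a1 and at least 10 Jchain UMIs, as in plasma cells, were 195 and 65. Ccr9 in the Jchain-high cells was at 131 CPM (121–141) and 16.5 CPM (10.4–25.03), so the contrast between libraries was present within that subset, with a log2 ratio of -2.91 (-3.67 to -2.37). In Ms4a1-positive cells Ccr9 was at 24.8 CPM (16.04–36.6) and 12.9 CPM (9.95–16.6). Ccr7 had the reverse distribution, with 305 CPM (272–341) and 422 CPM (404–441) in Ms4a1-positive cells and 3.26 and 21.8 CPM in Jchain-high cells. Within Ms4a1-positive cells the log2 ratio of Ccr7 was 0.47 (0.29–0.64), where the whole gate had 2.28. Cxcr4 in Ms4a1-positive cells was at 165 and 342 CPM, a log2 ratio of 1.05 (0.83–1.30), where the whole gate had 2.63. Restricting the gate to Ms4a1-positive cells, an alternative added after the data were seen, also took Ccr1, Ccr9 and Cx3cr1 in B cells under the 2-fold limit.

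Cxcr6, the receptor for the transmembrane chemokine Cxcl16 on tissue-resident T cells, was at 303 CPM (296–311) in CD4 T cells of the Runx3_fl-labelled library and 33.7 CPM (24.8–44.6) in those of the Runx3-labelled library. CD8 T cells were at 113 CPM (109–118) and 15.8 CPM (9.37–24.997). The log2 ratios were -3.13 (-3.61 to -2.76) and -2.77 (-3.60 to -2.18). At 2000 UMIs a Cxcr6 UMI was present in 42.1% (39.3–44.8) and 4.79% (1.95–9.63) of CD4 T cells and in 18.8% (16.6–21.1) and 6.48% (2.65–12.9) of CD8 T cells, against 0.984% and 0.189% of neutrophils as background. All other classes were at 8.41 CPM or less in both libraries. The T cell values of the Runx3-labelled library rest on 48 and 18 UMIs, against 5566 and 2152 in the Runx3_fl-labelled library.

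Cxcr3, the receptor for Cxcl9 and Cxcl10 on effector T cells, was at 60.4 CPM (56.9–64.1) and 31.6 CPM (23.0–42.2) in CD4 T cells, a log2 ratio of -0.92 (-1.40 to -0.51) under the 2-fold limit. In CD8 T cells it was at 46.6 CPM (43.6–49.8) and 9.67 CPM (4.83–17.3), a log2 ratio of -2.16 (-3.28 to -1.42). B-gated cells had 24.6 CPM (20.9–28.7) and 0.75 CPM (0.275–1.63), from 161 and 6 UMIs. In the Runx3_fl-labelled library the Jchain-high cells of that gate carried 154 of those 161 UMIs, at 29.5 CPM, and the Ms4a1-positive cells were at 5.95 CPM. The thinned shares of cells with a Cxcr3 UMI were 9.75% and 3.42% of CD4 T cells and 8.11% and 0.926% of CD8 T cells. Those of the Runx3-labelled library were not above the background of 0.378% in neutrophils beyond counting error. Cxcr3 lies on the X chromosome, as does Xist, which only the Runx3_fl-labelled library carried at a high level. The part of X dosage in the Cxcr3 difference was not tested.

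**Figure D5:**
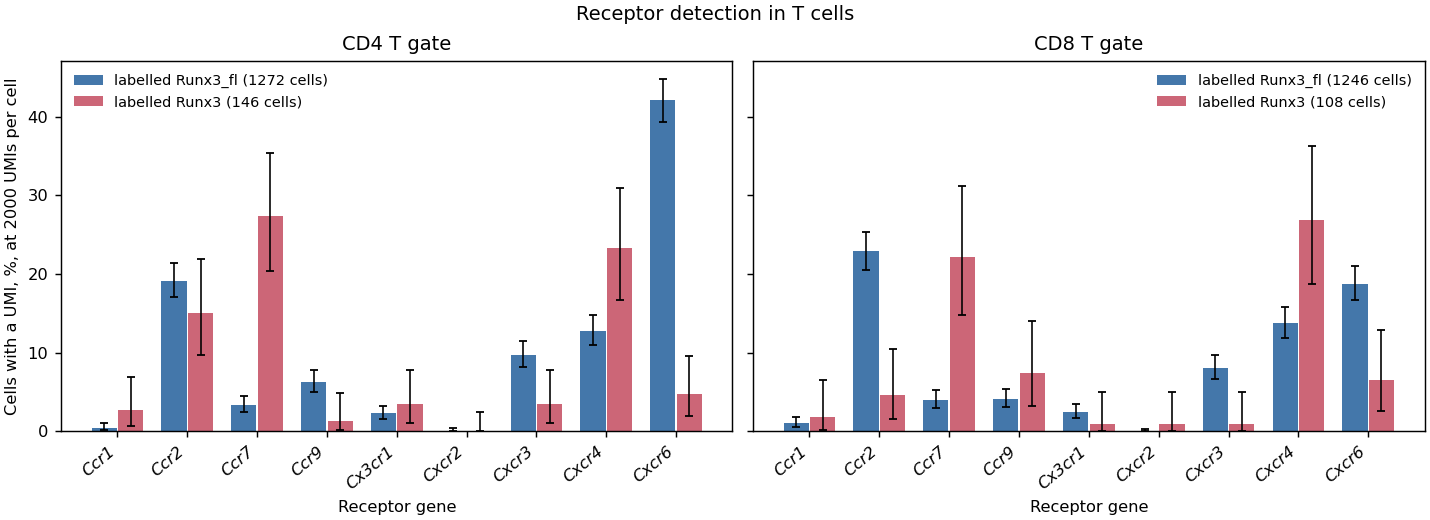
Share of CD4 T cells (left) and CD8 T cells (right) with a UMI of each receptor after thinning every cell to 2000 UMIs, in the Runx3_fl-labelled library (blue) and the Runx3-labelled one (red), with exact 95% binomial intervals. Cxcr6 stands at 42.1% and 4.79% of CD4 T cells and Ccr7 at 3.38% and 27.4%.

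Foxp3, the transcription factor of regulatory T cells, was detected in only 23 and 29 CD4 T cells. Ccr2 was at 430 CPM (352–520) and 255 CPM (203–316) in Foxp3-positive CD4 T cells and at 105 CPM (100–110) and 72.5 CPM (57.5–90.2) in Foxp3-negative ones. Cxcr6 was at 40.6 CPM (19.5–74.6) and 18.7 CPM (6.84–40.6) against 307 CPM (299–315) and 38.04 CPM (27.4–51.4). The Foxp3-positive cells were thus high in Ccr2 in both libraries, and low in Cxcr6 beyond counting error in the Runx3_fl-labelled library. Ccr9 in the Foxp3-negative cells was at 36.2 and 1.81 CPM, and in the Foxp3-positive cells it was at 40.6 and 37.3 CPM, the latter from 12 UMIs. Those 12 UMIs came from 2 cells, 1 of which held 8, and all 14 Ccr9 UMIs of CD4 T cells in the Runx3-labelled library came from 4 cells.

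Division of the T gates by Lef1 left the Cxcr6 contrast in place in CD4 T cells, with 302 and 22.3 CPM where Lef1 was detected and 307 and 59.1 CPM where it was not. In CD8 T cells Cxcr6 was at 105 and 2.27 CPM with Lef1 and at 129 and 62.3 CPM without. In CD8 T cells of the Runx3-labelled library Cxcr6 was thus lower in the Lef1-positive cells, the subset that had the higher Ccr7.

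Cxcr4, the receptor for Cxcl12, was present in all classes and varied least between them. Its highest class exceeded its lowest by 5.08 times in the Runx3_fl-labelled library and 2.996 times in the Runx3-labelled library, whereas for Ccr1 these factors were 222 and 89.4. B cells had 46.8 CPM (41.7–52.4) and 295 CPM (283–307), cDC 113 CPM (107–118) and 293 CPM (281–306), monocytes 147 CPM (141–154) and 355 CPM (345–366), and macrophages 138 CPM (130–146) and 305 CPM (294–316). These 4 passed the 2-fold limit, with log2 ratios of 2.63, 1.37, 1.26 and 1.14. CD4 T cells stood at 85.1 and 164 CPM (log2 ratio 0.94) and CD8 T cells at 86.7 and 119 CPM (0.45). NK cells, at 186 CPM (178–194) and 211 CPM (181–243), had overlapping intervals, and neutrophils were at 238 and 272 CPM. At 2000 UMIs a Cxcr4 UMI was present in 22.8% and 43.7% of monocytes and in 15.5% and 43.2% of B cells. No class was taken as free of Cxcr4, so its shares have no background.

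Within single cells, combinations of receptors were counted at 2000 UMIs. Neutrophils most often had several, with 3 or more of the 9 receptors in 21.0% and 18.3% of cells, against 0.24% and 0% of NK cells (0 of 85, which allows a share of up to 3.53%). Ccr1 and Cxcr2 were detected together in 28.9% (25.3–32.6) and 21.4% (17.9–25.1) of neutrophils. Ccr2 and Cxcr4 were found together in 8.55% (6.87–10.5) and 18.5% (16.2–20.9) of monocytes, and Ccr2 and Cx3cr1 in 1.83% (0.917–3.25) and 8.26% (6.42–10.4) of macrophages. Ccr7 and Cxcr4 were found together in 7.06% (4.62–10.2) and 22.1% (19.6–24.7) of B cells. In CD4 T cells of the Runx3_fl-labelled library, 9.91% (8.32–11.7) had both Ccr2 and Cxcr6, 4.09% (3.07–5.33) had both Cxcr3 and Cxcr6, and 0.629% (0.272–1.24) had both Ccr7 and Cxcr6. Of 146 CD4 T cells of the Runx3-labelled library, 0 had Cxcr6 together with Ccr2 or Cxcr3, which allows a share of up to 2.05%, where Cxcr6 with or without them was in 4.79%.

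The genes whose levels most resembled each receptor over the 16 combinations of class and library were sought among 5821 genes with at least 50 CPM in 1 of them. The measure was Pearson's r of log2(CPM + 1), given as a description, since the 16 values share 2 libraries. Ccr1 was followed by the inflammasome gene Nlrp3 (r = 0.993), the platelet-activating factor receptor Ptafr (0.990) and Gm39469 (0.987). For Ccr2, Nfil3 (0.945) and Fermt3 (0.929) were among the closest 3, and for Cxcr2 the closest were Cstdc4 (0.977), the neutrophil gelatinase Mmp9 (0.974) and 1600002D24Rik (0.969). Ccr7 went with Cd2ap (0.921), Arhgap5 (0.910) and Sh3pxd2a (0.894), and Cx3cr1 with Il10rb (0.965), Gm15832 (0.953) and Nadk (0.950). Cxcr3 was closest to the T cell checkpoint gene Ctla4 (0.952), Zdhhc2 (0.934) and Ncoa2 (0.929), and Cxcr6 to the costimulatory receptor Icos (0.954), Themis (0.949), which acts in T cell selection, and Ptpn13 (0.946). Cxcr4 went with Mafk (0.901), Wsb1 (0.898) and Fbrs (0.897). Ccr9 had the weakest match, with Lztfl1 (0.808), Adam19 (0.797) and Alg5 (0.794), and Lztfl1 overlaps Ccr9 on the opposite strand. Among the receptors themselves Ccr1 and Cx3cr1 had the highest r (0.922) and Cxcr3 and Cxcr4 the lowest (-0.780).

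The ligands of these receptors were described from a list of 19 genes, of which 93 of 152 pairs of gene and class had enough UMIs. Of these, 32 were at least 2-fold higher in the Runx3-labelled library and 26 at least 2-fold higher in the Runx3_fl-labelled library, against the backgrounds of 12% and 6.86% above. Ligands of Cxcr3 were lower in myeloid cells of the Runx3-labelled library: in macrophages Cxcl9 was at 1971 and 372 CPM (log2 ratio -2.40) and Cxcl10 at 1028 and 447 CPM. Cxcl16, the ligand of Cxcr6, was at 425 and 329 CPM in macrophages, a log2 ratio of -0.37, so it differed far less than its receptor did in T cells. Ccl5, a ligand of Ccr1 made by T and NK cells, was at 1487 and 126 CPM in CD4 T cells (log2 ratio -3.56) and at 2006 and 757 CPM in macrophages. The Cxcr2 ligand Cxcl2 was at 19477 and 4759 CPM in neutrophils, a log2 ratio of -2.03, while Cxcr2 itself differed by 0.17. Ccl2, the ligand of Ccr2, was higher in the Runx3-labelled library, at 58.1 and 173 CPM in macrophages and 82.5 and 208 CPM in monocytes. Ccl6 and Ccl9 in macrophages were also higher there, at 83.6 and 236 CPM and at 58.8 and 148 CPM.

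Of 15 other chemokine receptors, 32 of 120 pairs had enough UMIs, with 12 at least 2-fold higher in the Runx3-labelled library and 7 at least 2-fold higher in the Runx3_fl-labelled library, against backgrounds of 12% and 6.86%. Ccr10, a receptor of mucosal plasma cells, was at 109 and 28.8 CPM in B-gated cells, lower in the Runx3-labelled library as Ccr9 was. Ccrl2, a receptor that does not signal itself, was at 3335 and 1014 CPM in neutrophils. Of the 14 genes listed for signalling below the receptors, such as Gnai2, Dock2 and Rac2, 107 of 112 pairs had enough UMIs, with 8 at least 2-fold higher in each library, against the same backgrounds of 12% and 6.86%.

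Cells that passed no gate, 3946 and 2427 in number, had medians of 6404 and 1883 UMIs. Their receptor levels lay within the range of the gated classes, with Ccr7 at 207 CPM (202–212) and 231 CPM (222–241), Ccr2 at 144 and 136 CPM, and Cxcr6 at 49.4 CPM (46.9–51.9) and 20.4 CPM (17.6–23.6). Over all kept cells Cxcr6 was at 75.2 and 5.25 CPM and Cxcr3 at 23.0 and 2.68 CPM. The T gates held far fewer cells in the Runx3-labelled library, and the part of this in the totals was not tested.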

How the data were processed

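Single-cell 3′ libraries were made by the authors, who deposited 1 filtered matrix per library. Its values are UMI counts by gene and cell, whole and not normalized. Per the file headers they came from Cell Ranger 7.1.0, whose default also counts intronic reads. The setting used is not given in the sources used here, nor is the annotation. The submitters' processing notes name Seurat 4 and the build mm10. Of the 32285 gene IDs, 32158 were in GENCODE M21 (GRCm38), which gave all gene coordinates.

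Cells with 200 to 6000 genes and at most 15% mitochondrial UMIs were kept, the limits the study states, and doublets were handled by the upper limit on genes alone. Gates were as follows, in UMIs. NK cells had Ncr1 and at most 1 Cd3 UMI (Cd3d, Cd3e and Cd3g summed). T cells had at least 2 Cd3 UMIs and no Ncr1, with Cd4 and without Cd8a or Cd8b1 for CD4 T cells, and the reverse for CD8 T cells. B cells had Cd79a and at most 1 Cd3 UMI. Neutrophils had Csf3r without Csf1r or Flt3, and cDC had Flt3 without C1qa and at most 1 Cd3 UMI. Monocytes had Ly6c2 and Csf1r without C1qa or Flt3, and macrophages had Csf1r and C1qa. Cells of more than 1 gate, 511 and 843, were left out. The members, lists and gates were chosen with earlier results of these data known.

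Summed UMIs were divided by all UMIs of the class (CPM), with exact Poisson intervals. Shares of cells carry Clopper-Pearson intervals, and ratios carry an interval from the conditional binomial. For a count of 0 the upper limit is 3 counts. The 95% intervals reflect counting error alone. For shares, each cell was thinned at random to 2000 UMIs, and shallower cells were left out, between 3 and 91 per class in the Runx3_fl-labelled library and between 1 and 212 in the Runx3-labelled one. Background shares came from B cells for Ccr1, Ccr2, Cx3cr1 and Cxcr2 and from neutrophils for Ccr7, Ccr9, Cxcr3 and Cxcr6. Total UMIs were 146204416 and 75478164. The text names all 9 receptors, for each the 3 genes most correlated with it, and ligands or other receptors of at least 100 CPM in a class. Some results under this rule are not reported here. The steps were tested on simulated data. Calculations used scipy 1.17.1, numpy 2.4.6 and pandas 2.3.3 under Python 3.11.15, figures matplotlib 3.10.9, and the search for simulated doublets scikit-learn 1.9.0.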

Additional observations from a re-analysis of the deposited data

Results flagged for a closer look

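For 4 receptors the difference between the libraries passed the 2-fold limit in opposite directions in different classes. Whether the classes differ from each other was not tested, since each group had 1 library. Values are log2 ratios of the Runx3-labelled library over the Runx3_fl-labelled one. Ccr2 was at 1.56 in B cells and 1.12 in cDC but at -1.77 in CD8 T cells. Ccr7 was at 2.28 in B cells, 2.39 in CD4 T cells and 3.36 in CD8 T cells, but at -1.35 in macrophages and -1.01 in neutrophils. Ccr9 was at 1.14 in CD8 T cells, but at -3.20 in B cells and -1.79 in CD4 T cells. Cx3cr1 was at 1.02 in B cells, 1.23 in monocytes and 1.56 in macrophages, but at -1.21 in neutrophils. In neutrophils without the granule-high cells the ratios were -0.43 for Ccr7 and -0.62 for Cx3cr1, under the limit. B cells served as the background class for Ccr2 and Cx3cr1, which were at 15.9 CPM or less there in both libraries.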

How the results depend on the processing

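No paired analysis was possible because each group had 1 library, and for the same reason no library could be left out. Over the 9 alternatives planned for the counts, 16 to 21 pairs were higher in the Runx3-labelled library and 9 to 15 higher in the Runx3_fl-labelled library, against 18 and 10. The pairs with enough UMIs ranged from 52 to 72 there, and the shares of all genes from 8.68% to 13.2% and from 4.86% to 8.45%. Of the 28 pairs past the 2-fold limit, 19 stayed past it under all 9 and 9 did not under at least 1: Ccr1, Ccr2 and Ccr9 in CD8 T cells, Ccr2 in cDC, Ccr7 in macrophages and neutrophils, Cx3cr1 in B cells and neutrophils, and Cxcr4 in macrophages. Counting cells of more than 1 gate in each class took 6 pairs under the limit, among them Ccr2 in CD8 T cells, at -0.75. The mean over cells of each cell's CPM, which weights shallow cells as much as deep ones, reversed Ccr7 in neutrophils to 0.55. Among alternatives added after the data were seen, a B gate of Ms4a1-positive cells only reversed Ccr1 in B cells to -0.16 and left 14 and 8 of 50 pairs, with all genes at 10.3% and 5.81%. T gates without Lef1 took Ccr7 in CD8 T cells, Ccr1 in CD8 T cells and Ccr9 in CD4 T cells under the limit, and T gates with Lef1 took Ccr9 in CD8 T cells under it, at 0.79. Requiring S100a8 and S100a9 in neutrophils took none under it. Leaving out Fscn1-positive cells from the neutrophil, monocyte and macrophage gates also took none under it, but removed at most 3 cells from a gate of either library. The subset of neutrophils without the granule-high cells had Ccr7 at -0.43 and Cx3cr1 at -0.62, both under the limit. The number of receptors highest in the same class in both libraries was 6 by level under each of these changes that alters the levels themselves. Changes to the ratios or to the filter on low values alone cannot move that number. By thinned share it was 4, and 3 to 6 under the alternatives. Cell number limits the T and NK gates of the Runx3-labelled library: with 87 to 147 cells each, a share below 2.05% to 3.53% cannot be told from 0 there.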
